A study of Mus musculus with 12 samples.

Results

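The genes described here are 10 regulators of cell death of the BCL2 family and its relatives, taken by symbol from the 46983 rows of a nuclear RNA count table. They are the survival genes Mcl1, Bcl2l1 and Bcl2, the pore-forming Bax and Bak1, the BH3-only genes Bcl2l11, Bbc3, Bid and Pmaip1, and Bnip3. All 10 were in the table, and all 10 passed the filter on low counts, with 21 to 5848 counts per library. The table covered 4 libraries of RNA from nuclei of adult mouse cardiomyocytes, caught on beads through PCM1, a protein of the centriolar satellites. The 2 control libraries came from Myh6-MCM mice given tamoxifen. The 2 YAP5SA libraries came from Yap5SA+/tg; Myh6-MCM mice, also given tamoxifen, which express an activated form of YAP, the transcriptional co-activator restrained by the Hippo pathway. Both groups therefore carry the Cre transgene, driven by the Myh6 (cardiac myosin) promoter, and both received the drug that switches it on, and in the YAP5SA group this turns on the YAP transgene in heart muscle cells. The labels do not say whether the 2 libraries of a group came from separate animals, so p-values here reflect no more than how far these libraries lay apart, and that spread may be technical.

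Apoptosis through mitochondria is a contest between proteins that share BCL2 homology domains. BAX and BAK form pores in the outer mitochondrial membrane and release cytochrome c, and BCL2, BCL-xL and MCL1 hold them in check. BH3-only proteins such as BIM, PUMA, NOXA and cleaved BID bind the survival proteins or activate the pore formers, and so tip the contest towards death. BNIP3 has an atypical BH3 region and is best known as a receptor on the outer membrane that marks mitochondria for removal by autophagy. Adult cardiomyocytes are rarely replaced and hold a large mass of mitochondria, and the heart is known to depend on MCL1.

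Depth and makeup bear on every value below. Library totals ran from 7850661 to 15012122 counts. Cardiomyocyte markers dominated the listed markers, with the 8 genes summing to 31642 and 63520 CPM (the count relative to the TMM-scaled library total) in control and 22450 and 23604 CPM in YAP5SA. Markers of other heart cells were also present. The 10 macrophage markers summed to 773 and 564 CPM in control and 1347 and 1624 CPM in YAP5SA, and 5 of them rose, Fcgr1 and Cd14 with the smallest adjusted p. The 8 endothelial markers summed to 1896 and 1195 CPM in control and 935 and 866 CPM in YAP5SA, and 2 of them fell (Vwf and Robo4). The 7 fibroblast markers summed to 5471 to 6794 CPM over the 4 libraries with 1 gene that rose (Lum), the 6 smooth muscle and pericyte markers to 1229 to 1587 CPM with 1 gene that rose (Acta2), and the 6 lymphocyte markers to 1.37 to 8.78 CPM, led by Cd79a. No listed marker was at 0 in every library. Of the cardiomyocyte markers, led by Ttn and Myh6, 0 passed with edgeR and 4 were lower with DESeq2 (4 were lower and 0 higher at an unadjusted edgeR p under 0.05, median log2 fold change -1.09). Ttn alone measured 19901 and 48149 CPM in control and 15501 and 16678 CPM in YAP5SA. Pcm1, the gene of the protein used to catch the nuclei, was the 1 cardiomyocyte marker with a positive value. It measured 184 and 240 CPM in control and 250 and 282 CPM in YAP5SA (log2 fold change 0.33, edgeR adjusted p = 0.396). In such bulk RNA, fewer cells of a type and less RNA per cell cannot be told apart.

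Of the 10 genes, Bnip3 alone passed the threshold of the edgeR quasi-likelihood test (adjusted p under 0.05 over all 17715 tested genes), and it fell 3.59-fold in YAP5SA. No member rose past the threshold, although Bid, Bak1 and Mcl1 were higher in both YAP5SA libraries than in both control libraries (3 of 10, where 28.1% of all tested genes were). Across all tested genes 0.999% were called lower and 3.12% higher, so 1 lower and 0 higher calls among 10 members stand beside those shares. At an unadjusted p under 0.05, 2 members were higher (Bid and Bak1) and 1 was lower (Bnip3), where 12.7% and 10.9% of all tested genes were. DESeq2 called the same counts, 0 higher and 1 lower. It called 3.5% and 1.73% of the 30546 genes it gave a p-value. That total includes low-count genes that the edgeR filter removed, so these shares are not comparable with those over 17715 genes. The median log2 fold change of the 10 was 0.05, and that of all tested genes was -0.06. The members' median was 0.52 without control replicate 1 and -0.21 without control replicate 2, so its sign turned with the control library. The members that did not pass are not shown to be unchanged. The narrowest 95% interval, that of Mcl1, ran from -0.28 to 0.68, and intervals were widest where the control libraries lay far apart. Those of Bid and Bak1 lay above 0.

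**Figure D1:**
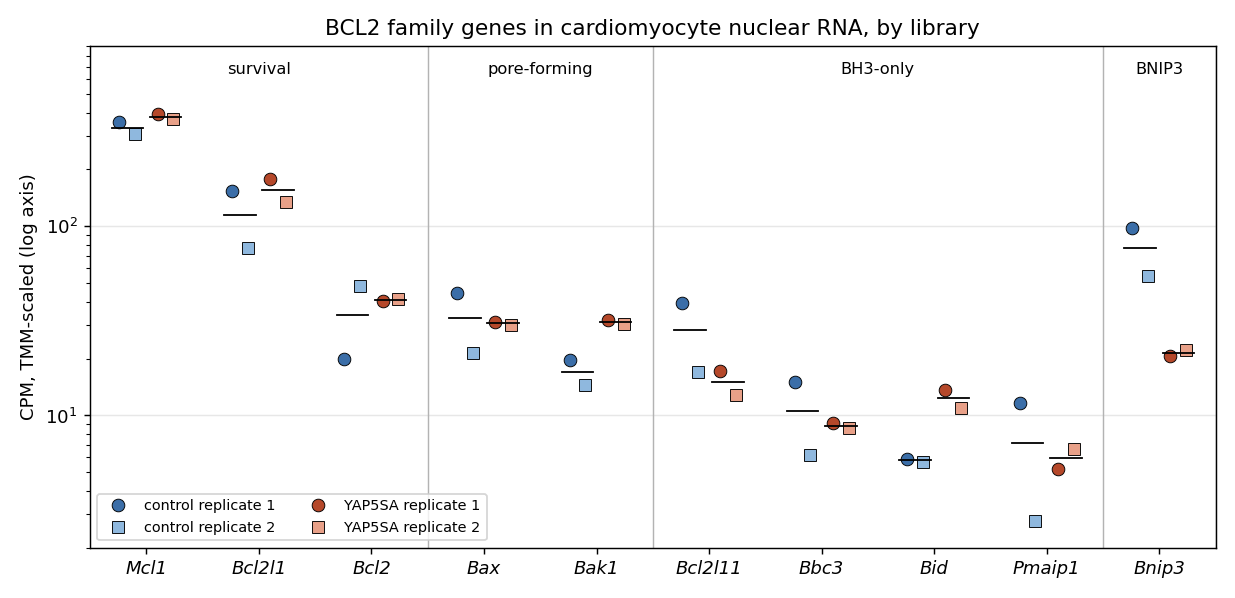
Levels of the 10 genes in each nuclear RNA library, in CPM on a log axis, grouped by role. Circles are replicate 1 and squares replicate 2, blue for control and red for YAP5SA, and each black line is a group mean. The YAP5SA points lie close together, Bnip3 lies lower and Bid and Bak1 lie higher in both YAP5SA libraries, and the control points of 7 genes are at least 0.8 apart on the log2 scale.

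Bnip3 lies on chromosome 7 (138890836 to 138909519, minus strand, mm10). It is a well-known target of hypoxia-inducible factor, and its protein couples damaged or surplus mitochondria to the autophagosome. In control Bnip3 stood at 98.6 and 55.0 CPM, and in YAP5SA it stood at 20.7 and 22.2 CPM. Both YAP5SA libraries were below both control libraries, as they were for 28.3% of all tested genes. Group means were 76.8 ± 30.9 CPM (control) and 21.4 ± 1.05 CPM (YAP5SA; SD, n = 2). The log2 fold change was -1.84 (SE 0.308, 95% interval -2.62 to -1.07, adjusted p = 0.0437). Per kilobase of exon, Bnip3 had the second highest mean of the 10 in control and the fifth in YAP5SA. The call was lost when genes had to reach 1 CPM in every library (adjusted p = 0.0509) and when either YAP5SA library was left out (adjusted p = 0.192 without replicate 1 and 0.307 without replicate 2), although the log2 fold change stayed between -2.17 and -1.35 in all 12 alternatives. The cardiomyocyte and endothelial markers had negative medians too, -1.09 and -0.86, and their part in the Bnip3 value was not tested. The exons of Bnip3 share 504 bases with an antisense gene model that has no row in the table.

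The 250 bases upstream of the RefSeq start site are shown for Bnip3 and for Egln3 and Pdk1, which were picked because they fell with it. They were searched for short words of the hypoxia response element. Capitals mark ACGTG and GCGTG, the forms of its core, found on either strand. The windows are from RefSeq on GRCm38.p6 and lie at chr7:138909507-138909756 (minus strand), chr12:54203875-54204124 (minus strand) and chr2:71872974-71873223 (plus strand).
Bnip3: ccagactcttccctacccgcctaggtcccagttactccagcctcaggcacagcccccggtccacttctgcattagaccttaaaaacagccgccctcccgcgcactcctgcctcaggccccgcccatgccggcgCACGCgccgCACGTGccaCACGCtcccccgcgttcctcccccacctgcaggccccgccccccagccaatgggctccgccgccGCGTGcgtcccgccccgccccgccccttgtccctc
Egln3: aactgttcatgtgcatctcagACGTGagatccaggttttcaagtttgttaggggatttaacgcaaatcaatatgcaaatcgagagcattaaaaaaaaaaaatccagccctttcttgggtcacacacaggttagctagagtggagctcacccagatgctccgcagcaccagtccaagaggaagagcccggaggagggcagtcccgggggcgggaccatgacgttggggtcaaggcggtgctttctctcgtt
Pdk1: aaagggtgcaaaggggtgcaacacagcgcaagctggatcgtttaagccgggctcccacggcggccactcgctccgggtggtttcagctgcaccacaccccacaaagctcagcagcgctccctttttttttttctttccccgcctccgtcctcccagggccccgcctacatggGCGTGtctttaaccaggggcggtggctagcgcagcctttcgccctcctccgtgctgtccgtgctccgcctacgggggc
The Bnip3 window held 2 matches to ACGTG, which are the 2 strands of 1 CACGTG palindrome, and 3 matches to GCGTG. Of 32851 such windows over all genes, 16.6% held at least 1 match to ACGTG and 6.81% at least 2. The CACGTG palindrome, which alone gives 2 matches, was in 6.02% of windows. At least 3 matches to GCGTG were in 2.77%. Egln3 held 1 match to ACGTG and Pdk1 1 to GCGTG, words found in 16.6% and 28.2% of all windows. Optn, which also fell and whose window is not shown, held 0 matches to ACGTG and 2 to GCGTG. At least 2 matches to GCGTG were in 8.63% of all windows. Windows of listed hypoxia genes that did not fall were not looked up, so the words cannot be set against the direction of change. The Bnip3 window had a GC content of 72.4% against a median of 52.4% over all windows, and the shares were not computed among GC-rich windows alone. These matches describe letters only, and no binding data were used.

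Genes of hypoxia and mitophagy gave the setting for Bnip3. Of 13 tested genes, 3 fell and 0 rose, where 0.999% and 3.12% of all tested genes did. Their median log2 fold change was -0.40, against -0.06 for all tested genes. Pdk1, whose kinase turns off pyruvate dehydrogenase, measured 101 and 109 CPM in control and 39.3 and 40.1 CPM in YAP5SA (log2 fold change -1.41, SE 0.158, adjusted p = 0.0278). Egln3, an oxygen-sensing prolyl hydroxylase gene, measured 63.0 and 57.9 CPM in control and 24.5 and 26.4 CPM in YAP5SA (log2 fold change -1.25, SE 0.165, adjusted p = 0.0316). For both genes the control libraries lay close together and far above the YAP5SA libraries. The third gene that fell was Optn, an autophagy receptor gene, from 60.1 ± 1.83 to 30.9 ± 1.48 CPM (SD, n = 2, adjusted p = 0.0434), named after its values were seen. Of all 13 genes, 10 had a negative and 3 a positive fold change, and the median over all tested genes was negative too. Ankrd37, a small hypoxia-induced gene, had the most negative value without passing, with 3.98 and 4.76 CPM in control and 1.55 and 1.37 CPM in YAP5SA (log2 fold change -1.57, adjusted p = 0.0743). Ldha, the lactate dehydrogenase gene, measured 390 and 387 CPM in control and 276 and 332 CPM in YAP5SA (log2 fold change -0.35, adjusted p = 0.335). Both YAP5SA libraries were below both control libraries for these 2 genes, as for 28.3% of all tested genes. The 3 positive genes did not pass. Vegfa, the angiogenic factor gene, measured 162 and 306 CPM in control and 290 and 301 CPM in YAP5SA (adjusted p = 0.567). Slc2a1, the glucose transporter gene, measured 46.6 and 63.8 CPM in control and 76.0 and 77.9 CPM in YAP5SA (adjusted p = 0.232). Hif1a itself measured 161 and 235 CPM in control and 232 and 241 CPM in YAP5SA (adjusted p = 0.547). The choice of these 5 was made with their values known. Bnip3l, the paralog of Bnip3 and also a mitophagy receptor gene, measured 68.8 and 45.2 CPM in control and 42.5 and 41.5 CPM in YAP5SA (log2 fold change -0.44, 95% interval -1.04 to 0.16, adjusted p = 0.323). The calls of Pdk1, Egln3 and Optn were lost when either YAP5SA library was left out, and 0 genes of the list passed in either of these fits. Without control replicate 1 the median of the list was -0.34, and without control replicate 2 it was -0.58.

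**Figure D2:**
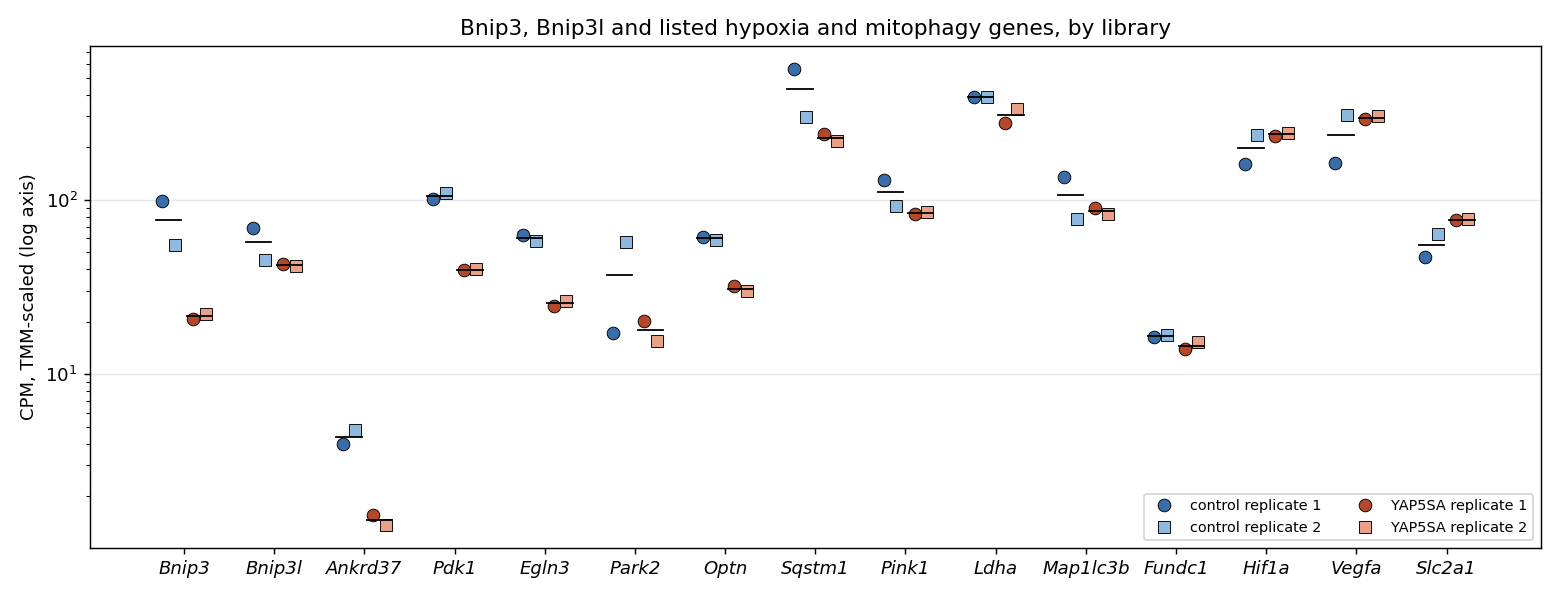
Levels of Bnip3, Bnip3l and the 13 tested hypoxia and mitophagy genes in each library, in CPM on a log axis, with symbols as in the plot of members by library. Bnip3, Pdk1, Egln3 and Optn lie lower in both YAP5SA libraries and passed the threshold, while Hif1a, Vegfa and Slc2a1 had positive fold changes that did not pass.

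Among the BH3-only genes, Bid had the largest positive value and the smallest gap between control libraries of the 10 members. BID is cut by caspase-8 and carries the signal of death receptors to mitochondria. Bid (chromosome 6, 120891930 to 120916853, minus strand) measured 5.89 and 5.68 CPM in control and 13.6 and 11.0 CPM in YAP5SA. Both YAP5SA libraries were above both control libraries, as for 28.1% of all tested genes. The log2 fold change was 1.09 (SE 0.253, 95% interval 0.46 to 1.72), and its adjusted p of 0.0783 missed the threshold. It stayed between 0.95 and 1.25 in all 12 alternatives. DESeq2 gave an adjusted p of 0.0523, and Bid passed without either control library and with no filter on low counts. Exons of Bid share 628 bases with those of Bcl2l13 on the opposite strand, and no source used here gives the strand setting of the counting. Bcl2l13, itself a BCL2 relative, measured 83.9 and 72.3 CPM in control and 89.6 and 92.4 CPM in YAP5SA (log2 fold change 0.22, adjusted p = 0.460).

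Bak1 was the other member higher at an unadjusted edgeR p under 0.05, and its protein sits on the outer membrane ready to form pores. Bak1 (chromosome 17, 27019810 to 27029009, minus strand) measured 19.6 and 14.4 CPM in control and 31.9 and 30.5 CPM in YAP5SA. All YAP5SA values were above all control values, as for 28.1% of all tested genes. The log2 fold change was 0.87 (SE 0.214, 95% interval 0.34 to 1.41, adjusted p = 0.0881), and it ran from 0.71 to 1.12 over the alternatives. The DESeq2 adjusted p was 0.0512, and Bak1 passed in the same 3 alternatives as Bid. Exons of Ggnbp1 overlap Bak1 on the opposite strand, and Ggnbp1 measured 8.69 and 11.5 CPM in control and 5.32 and 5.70 CPM in YAP5SA.

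The upstream windows of Bid and Bak1 are shown beside that of Bnip3 because their values lay in the opposite direction. They lie at chr6:120916825-120917074 and chr17:27028628-27028877, both on the minus strand. The Bak1 window is upstream of the RefSeq start only. It lies wholly inside the gene span given above, downstream of the GENCODE 5′ end, so bases before that end were not searched.
Bid: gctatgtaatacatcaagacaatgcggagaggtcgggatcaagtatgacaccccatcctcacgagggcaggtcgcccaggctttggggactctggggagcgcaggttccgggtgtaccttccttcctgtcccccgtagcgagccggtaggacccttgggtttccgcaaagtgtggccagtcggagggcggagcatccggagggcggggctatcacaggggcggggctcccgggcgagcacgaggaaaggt
Bak1: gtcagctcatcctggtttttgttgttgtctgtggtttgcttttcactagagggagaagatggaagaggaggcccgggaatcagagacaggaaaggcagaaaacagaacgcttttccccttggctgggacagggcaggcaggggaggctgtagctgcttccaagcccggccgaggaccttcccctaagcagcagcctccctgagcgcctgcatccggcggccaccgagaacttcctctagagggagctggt
Neither window held either core of the hypoxia response element. Nor did either hold GGAATG, a word recognised by TEAD factors, the DNA-binding partners of YAP, and so neither shows capitals. GGAATG, searched on both strands, occurred in 12.6% of all windows. Of the 9 members with a window, 2 held GGAATG (Mcl1 and Bcl2l1), 2 held ACGTG (Bnip3 and Bax) and 4 held GCGTG (Bnip3, Bcl2l1, Bcl2l11 and Bbc3).

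Bax, the partner of Bak1 in pore formation, encodes a soluble protein that moves to mitochondria on activation. Bax measured 44.2 and 21.4 CPM in control and 31.4 and 30.1 CPM in YAP5SA. The YAP5SA values lay between the control values. The log2 fold change was -0.10 (95% interval -0.97 to 0.77, adjusted p = 0.893). Against control replicate 1 alone it was -0.49 (adjusted p = 0.00546) and against control replicate 2 alone it was 0.53 (adjusted p = 0.0101), so the direction of Bax turned with the control library used.

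Of the survival genes, Mcl1 was the most abundant of the 10 members per kilobase of exon. Mcl1 encodes a short-lived protein that restrains BAK and BIM. It measured 355 and 309 CPM in control and 394 and 368 CPM in YAP5SA (log2 fold change 0.20, 95% interval -0.28 to 0.68, adjusted p = 0.577). The YAP5SA libraries were both above the control libraries, as for 28.1% of all tested genes. Mcl1 had the narrowest interval of the 10. Bcl2l1, which encodes BCL-xL, measured 154 and 76.9 CPM in control and 178 and 135 CPM in YAP5SA (log2 fold change 0.44, 95% interval -0.45 to 1.33, adjusted p = 0.497). The groups of Bcl2l1 overlapped. Against control replicate 2 alone its log2 fold change was 1.03 (adjusted p = 6.23e-10) and against control replicate 1 alone 0.06 (adjusted p = 0.766). Bcl2, the founding survival gene, measured 19.8 and 48.1 CPM in control and 40.2 and 41.4 CPM in YAP5SA (log2 fold change 0.27, 95% interval -0.75 to 1.30, adjusted p = 0.731). It was the one member with more RNA in control replicate 2 than in control replicate 1. Against control replicate 1 alone its log2 fold change was 1.08 (adjusted p = 2.57e-09) and against control replicate 2 alone -0.23 (adjusted p = 0.215). Without strand, reads of Bcl2 and of its antisense neighbour D630008O14Rik (0.453 to 2.91 CPM) could not be told apart.

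The other BH3-only members had low or uneven values. Bcl2l11, which encodes BIM, measured 39.5 and 16.9 CPM in control and 17.2 and 12.8 CPM in YAP5SA. Control replicate 1 stood apart, and the other 3 libraries lay within 12.8 to 17.2 CPM. The log2 fold change was -0.92 (95% interval -1.98 to 0.14, adjusted p = 0.262), with -0.16 against control replicate 2 alone (adjusted p = 0.571) and -1.36 against control replicate 1 alone (adjusted p = 2.08e-14). Bbc3, which encodes PUMA, a p53 target, measured 14.9 and 6.21 CPM in control and 9.10 and 8.58 CPM in YAP5SA. Its YAP5SA values again fell between the control values (log2 fold change -0.27, 95% interval -1.35 to 0.80, adjusted p = 0.742), and against control replicate 1 alone it was -0.72 (adjusted p = 0.00505) and against control replicate 2 alone 0.52 (adjusted p = 0.148). Pmaip1 encodes NOXA, which binds MCL1 and is also a p53 target. Pmaip1 measured 11.6 and 2.78 CPM in control and 5.19 and 6.68 CPM in YAP5SA (log2 fold change -0.30, 95% interval -1.90 to 1.29, adjusted p = 0.813). Its 128 and 21 control counts were the widest control gap of the 10. Against control replicate 2 alone Pmaip1 gave 1.10 (adjusted p = 0.0141) and against control replicate 1 alone -0.93 (adjusted p = 0.00112).

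**Figure D3:**
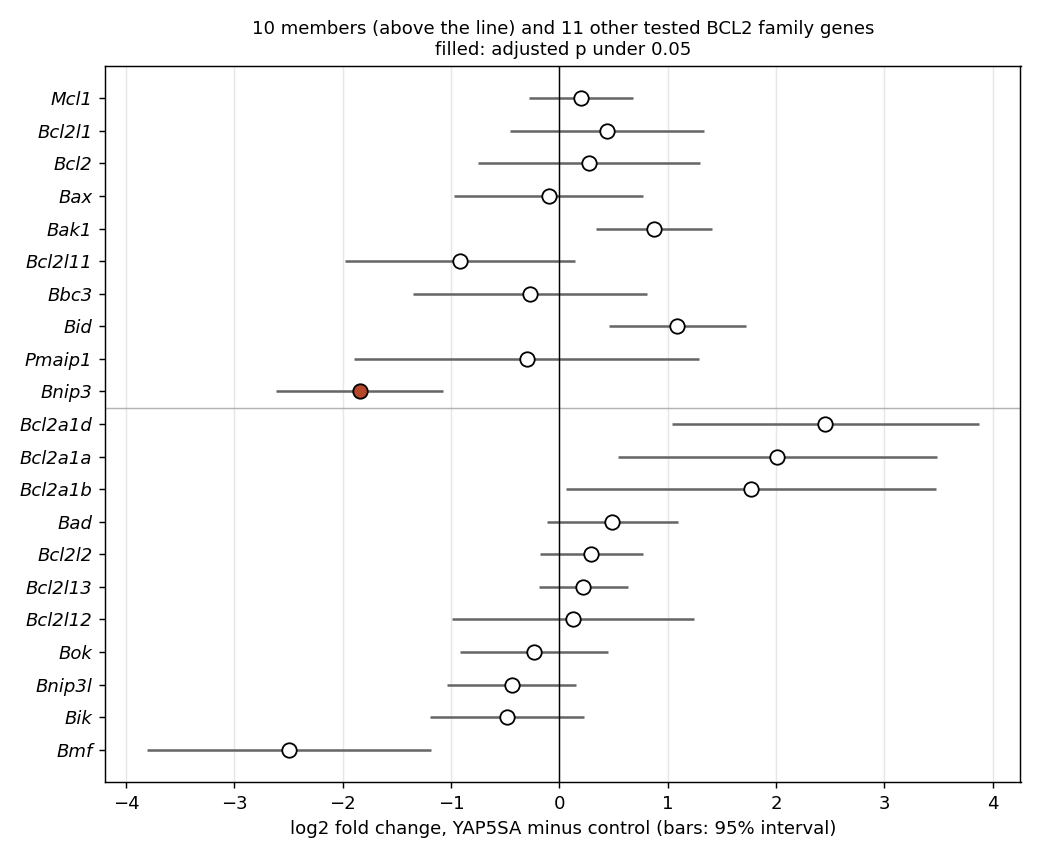
Log2 fold change (YAP5SA minus control) of the 10 members, above the line, and of 11 other tested BCL2 family genes, with bars for the 95% interval. The filled point has an adjusted p under 0.05, which Bnip3 reached at -1.84, while the intervals of Bid, Bak1, Bmf and 3 Bcl2a1 genes lie clear of 0 without an adjusted p under 0.05.

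For most members the control libraries lay further apart than the YAP5SA libraries. In 9 of the 10 members control replicate 2 was below control replicate 1, against 52.6% of all tested genes with a count in both libraries. In 7 of the 10 the control libraries differed by at least 0.8 on the log2 scale, against 25.2% of all such genes. In 0 of the 10 the YAP5SA libraries differed by that much. Of the 17715 tested genes, 1028 had a count in both YAP5SA libraries and a gap that large. Such a gap in YAP5SA was thus uncommon among all genes too. The median size of the control gap was 1.02 over the members and 0.42 over all genes. Genes of p53 and its targets, of which Bax, Bbc3 and Pmaip1 are further known examples, showed gaps of the same sign in 12 of 16. So did other lists, with 7 of 8 endothelial markers, 7 of 10 macrophage markers, 5 of 7 fibroblast markers and 7 of 8 regulators of BH3-only genes lower in control replicate 2. Cdkn1a, the p53-induced inhibitor of cyclin-dependent kinases, measured 334 and 95.7 CPM in control and 112 and 109 CPM in YAP5SA (adjusted p = 0.351). Sesn2, a stress-induced gene, measured 110 and 10.8 CPM in control and 17.3 and 15.3 CPM in YAP5SA (adjusted p = 0.296). The choice of both was made with their values known. The 8 cardiomyocyte markers went the other way, with control replicate 2 above control replicate 1 in 8 of 8 (median gap 0.49). The part of these differences in the members' values was not tested.

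**Figure D4:**
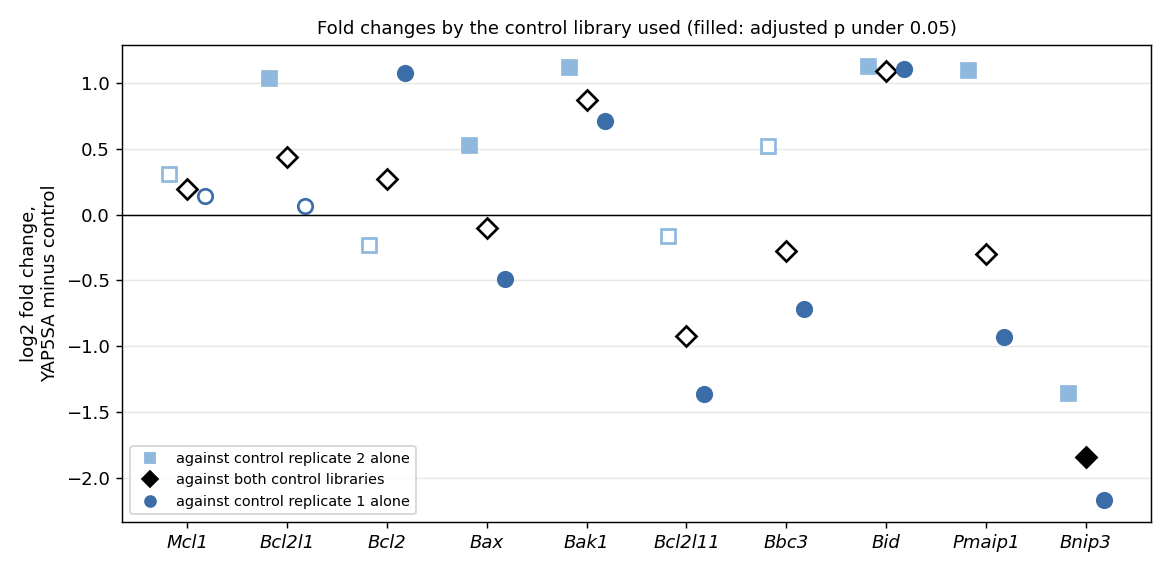
Log2 fold change of each member against both control libraries (black diamonds), against control replicate 1 alone (dark blue circles) and against control replicate 2 alone (light blue squares). Filled symbols have an adjusted p under 0.05. Bid, Bak1, Mcl1 and Bnip3 keep 1 direction, as do Bcl2l1 and Bcl2l11, while Bcl2, Bax, Bbc3 and Pmaip1 lie on both sides of 0.

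Leaving out a control library changed which members were called. Without control replicate 1, 5 members were higher (Bcl2l1, Bax, Bak1, Pmaip1 and Bid) and 1 lower (Bnip3), where 18.8% and 17.4% of all tested genes were called. Without control replicate 2, 3 were higher (Bcl2, Bak1 and Bid) and 5 lower (Bax, Bcl2l11, Bbc3, Pmaip1 and Bnip3), where 19.7% and 18.6% of all were. Bid and Bak1 were called higher, and Bnip3 lower, against each control library. In these fits the lone control library is assumed to vary like the YAP5SA pair, which lay closer together than the control pair. Without either YAP5SA library, 0 members were called, with 0.362% of genes called higher and 0.0266% lower without replicate 1, and 0.143% and 0% without replicate 2. In those 2 fits unadjusted p-values under 0.05 were found for Bak1 (0.0448, without replicate 2), Bid (0.0300, without replicate 2) and Bnip3 (0.00438 without replicate 1, 0.00537 without replicate 2). With no filter on low counts, 2 members were higher and 2 lower, where 5.65% and 5.53% of genes were. With at least 1 CPM required in every library 0 were called (2.33% and 0.653% of genes), and with a replicate block 0 were higher and 1 lower (1.81% and 0.632%).

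Ratios of 2 genes within a library do not depend on how libraries are scaled, and the balance of a survival gene to a death gene is often read that way. The log2 ratio of Bcl2 to Bax counts was -1.16 and 1.17 in control against 0.35 and 0.46 in YAP5SA, so the control libraries fell on both sides of YAP5SA. That of Bcl2l1 to Bax was 1.80 and 1.85 in control and 2.50 and 2.16 in YAP5SA. Here the control libraries nearly coincided and lay below both YAP5SA libraries, by 0.51 on average. The log2 ratio of Mcl1 to Bak1 was 4.18 and 4.42 in control and 3.62 and 3.59 in YAP5SA, lower in YAP5SA by 0.69 on average. That of Bcl2l11 to Mcl1 was -3.17 and -4.19 in control and -4.52 and -4.85 in YAP5SA. Ratios are given as a description and were not tested (the smallest exact two-sided permutation p for 2 against 2 libraries is 0.333). How often the groups lie apart in ratios of other gene pairs was not computed.

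Between genes, levels were compared as CPM per kilobase of the union of exons. In control Mcl1 stood highest at 97.2 ± 9.48, followed by Bnip3 at 33.9 ± 13.6, Bcl2l1 at 25.1 ± 11.8 and Bax at 20.8 ± 10.2 (SD, n = 2). The ranges of the last 3 overlapped across libraries, while within each control library the order was the same, with 43.5, 33.5 and 28.0 in replicate 1 and 24.3, 16.8 and 13.6 in replicate 2. Bak1 followed at 7.06 ± 1.51, and the other 5 lay between 1.63 ± 0.0405 (Bid) and 4.98 ± 2.91 (Bbc3). In YAP5SA the order was Mcl1 (111 ± 5.45), Bcl2l1 (34.1 ± 6.64), Bax (19.5 ± 0.562), Bak1 (13.0 ± 0.437) and Bnip3 (9.46 ± 0.464), and no ranges of neighbours among these 5 overlapped. The other 5 lay between 1.86 ± 0.390 (Bcl2l11) and 4.45 ± 0.0947 (Bcl2). In nuclear RNA such levels are approximate, because reads of introns may or may not have been counted.

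Of 16 further BCL2 family genes, 11 were tested, and 0 rose and 0 fell with edgeR. At an unadjusted p under 0.05, 3 were higher and 1 was lower, where 12.7% and 10.9% of all tested genes were. The median log2 fold change of the 11 was 0.22, and it stayed 0.22 with limma-voom and with DESeq2 size factors in edgeR. Medians of the other settings cover the genes each kept, so they are not over the same genes. They were -0.18 with DESeq2, -0.19 with no filter (1 rose, 3 fell) and -0.07 with the 1 CPM filter. Leaving out a library gave 0.50 without control replicate 1 and -0.05 without control replicate 2. It gave 0.26 without YAP5SA replicate 1 and -0.16 without YAP5SA replicate 2. With DESeq2, Bmf passed downward (adjusted p = 0.000280). Bmf, a BH3-only gene whose protein is tethered to the cytoskeleton, measured 25.4 and 9.65 CPM in control and 3.64 and 2.58 CPM in YAP5SA. Both YAP5SA libraries were below the control libraries, as for 28.3% of all tested genes (log2 fold change -2.50, SE 0.523, adjusted p = 0.0642 with edgeR). The value was -1.61 without control replicate 1 and -2.98 without control replicate 2, and both fits called it. The genes higher at an unadjusted edgeR p under 0.05 were Bcl2a1 copies, survival genes of blood cells whose near-identical sequences can share reads. Bcl2a1d had 3 and 6 counts in control and 41 and 37 in YAP5SA (log2 fold change 2.45, SE 0.566, adjusted p = 0.0773). Bcl2a1a had 3 and 2 counts in control and 13 and 18 in YAP5SA (adjusted p = 0.123), and Bcl2a1b 6 and 1 against 23 and 13 (adjusted p = 0.199). Bcl2a1c had 0 counts in all 4 libraries. The macrophage markers were higher in the same libraries (10 of 10 with a positive fold change, 5 of them past the threshold, median 1.49), and their part in the Bcl2a1 values was not tested. Fcgr1 rose 3.70-fold and Cd14 3.22-fold. Bcl2l12 gave 0.13 (adjusted p = 0.891). The survival gene Bcl2l2, the BH3-only genes Bad and Bik, and the pore-forming relative Bok had log2 fold changes from -0.49 to 0.49 and adjusted p from 0.291 to 0.648. Hrk, a BH3-only gene, had 15 and 2 counts in control and 0 and 0 in YAP5SA, too few to be tested, as were Bcl2l10, Bcl2l14 and Bcl2l15.

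Downstream of the mitochondrial membrane, of 13 apoptosome and caspase genes, 1 rose and 0 fell (median log2 fold change 0.00). For this and the next lists, 3.12% of all tested genes rose and 0.999% fell. Htra2, which encodes a mitochondrial protease that can be released to counter inhibitors of apoptosis, rose from 9.33 and 11.0 CPM to 37.2 and 39.6 CPM (log2 fold change 1.92, SE 0.190, adjusted p = 0.0221). Exons of Htra2 share 535 bases with Loxl3 and 753 with Aup1 on the opposite strand. Loxl3 measured 71.5 and 32.1 CPM in control and 30.4 and 41.3 CPM in YAP5SA, and Aup1 30.9 and 27.1 CPM in control and 37.3 and 45.4 CPM in YAP5SA. Of 6 tested genes of inhibitor of apoptosis proteins, 1 rose and 0 fell (median -0.02). Naip2, an innate immune sensor gene of that family, rose from 4.17 and 5.15 CPM to 13.6 and 16.1 CPM (adjusted p = 0.0394), in the same libraries in which the macrophage markers were higher, and their part was not tested. Of 16 genes of p53 and its targets, 1 rose and 0 fell (median -0.05), and that was Eda2r, a receptor gene of the tumor necrosis factor family, which rose 2.27-fold (adjusted p = 0.0493). The median of the apoptosome and caspase genes was 0.02 without control replicate 1 and -0.01 without control replicate 2. That of the inhibitor genes was 0.15 and 0.03 in these fits. For the 16 p53 genes it was 0.45 without control replicate 1 and 0.15 without control replicate 2, against -0.05 with both. The calls of Htra2, Naip2 and Eda2r were lost without either YAP5SA library. Of 11 death receptor genes 0 passed with edgeR or DESeq2. At an unadjusted p under 0.05, 3 were higher and 0 lower, where 12.7% and 10.9% of all tested genes were. Their median was 0.38, with 0.60 without control replicate 1 and 0.25 without control replicate 2. Cflar, which encodes the caspase-8 inhibitor cFLIP, measured 119 ± 2.79 CPM (control) and 135 ± 3.96 CPM (YAP5SA; SD, n = 2, adjusted p = 0.497). Tnfrsf1a, a tumor necrosis factor receptor gene, measured 147 and 87.6 CPM in control and 95.7 and 96.7 CPM in YAP5SA (adjusted p = 0.562).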

How the data were processed

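Nuclear RNA-seq was analysed from 4 libraries (2 control, 2 YAP5SA), and the ATAC-seq and 4C-seq samples were not analysed here. The deposited values are raw counts per gene symbol, whole numbers that were not normalized. Per the labels' protocols, libraries were stranded and depleted of ribosomal RNA, and reads were mapped to mm10 with STAR. DESeq2 and STAR are named in the submitters' processing notes. No source used here gives the counting program, its strand setting, the annotation or the versions.

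Genes passing filterByExpr of edgeR 4.0.16 (minimum count 10; R 4.3.3) were scaled by TMM and tested with the edgeR quasi-likelihood F test, two-sided, without a replicate block, with Benjamini-Hochberg adjustment over 17715 genes. SE is the absolute log2 fold change over root F, and 95% intervals use the test's degrees of freedom. Positions and exon lengths came from GENCODE M21 (GRCm38, which is mm10), and of several RefSeq starts the one nearest the GENCODE 5′ end was used. A count of 0 allows 3 counts, 0.202 to 0.397 CPM, limits that cover only the error of counting, as no molecular identifiers are described. The members and gene lists were chosen with earlier results of these data known. Named genes were all members, the listed BCL2 relatives and, per other list, the 2 smallest adjusted p in each direction among called genes or else the 2 highest means. Other genes are said to be chosen after their values were seen. Alternatives were DESeq2 1.42.0, limma-voom 3.58.1, other scalings and filters, a replicate block and leaving out each library. The pipeline was tested on simulated data. Replicates of a group differed by more than sampling noise (mean chi-square over genes 61.9 in control and 15.2 in YAP5SA) and were kept apart.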

Additional observations from a re-analysis of the deposited data

How the results depend on the processing

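Counts of called genes moved with the tool, the filter and above all with single libraries. Against 553 higher and 177 lower genes, DESeq2 called 1069 and 527, an edgeR fit with no filter 1727 and 1689, and a filter of 1 CPM in every library 354 and 99. Leaving out single libraries gave 27 to 3749 higher and 0 to 3554 lower genes. Among the members, 0 to 5 were higher and 0 to 5 lower in those fits, 2 higher (Bak1, Bid) and 2 lower (Bcl2l11, Bnip3) with no filter, and 0 lower with the 1 CPM filter. The cause was not tested, beyond that a left-out control library leaves the closer YAP5SA pair to set the spread.

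With control replicate 1 left out, values past the threshold turned to positive for Bax (0.53), Pmaip1 (1.10), Sesn2 (0.60), Trp53inp1 (0.42) and Perp (1.05), and with control replicate 2 left out Jun turned to 0.52. Trp53inp1 and Perp were named after their values were seen. The other control library left out gave -0.49, -0.93, -2.72, -1.95 and -0.62 for those 5 genes and -1.15 for Jun. The labels number replicates in both groups without saying that a number marks a shared animal or day. A replicate block gave 321 higher and 112 lower genes, with 0 members higher and 1 lower, and it ended the calls of Egln3, Naip2, Optn and Eda2r (adjusted p = 0.0523, 0.0561, 0.0835 and 0.0688) and made that of Bmf (adjusted p = 0.0375, but 0.0774 with the crossed block described next). Deviations of same-numbered libraries correlated at -0.11 across genes, and a crossed replicate block, chosen after seeing the data, gave 328 and 103 genes. Eda2r also lost its call with limma-voom (adjusted p = 0.0505) and with the 1 CPM filter (adjusted p = 0.0573). Depth limits Bcl2a1a, Bcl2a1b and Bcl2a1d, which rest on 1 to 6 counts per control library.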

Other observations

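Of 10 tested genes of outer membrane channels and of mitochondrial fission and fusion, 0 passed with edgeR or DESeq2, and 1 was lower and 0 higher at an unadjusted p under 0.05, where 10.9% and 12.7% of all tested genes were. The median log2 fold change was -0.19, against -0.06 for all tested genes. Without control replicate 1 it was -0.20, and without control replicate 2 it was -0.08. Mfn2, which encodes a mitofusin of the outer membrane, measured 360 and 365 CPM in control and 254 and 269 CPM in YAP5SA (adjusted p = 0.191). Vdac2, which encodes a channel that binds BAK, measured 247 ± 7.60 CPM (control) and 245 ± 13.3 CPM (YAP5SA; SD, n = 2, adjusted p = 0.984).

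Of 8 tested regulators of BH3-only genes, 0 passed with edgeR and 1 was higher with DESeq2. At an unadjusted edgeR p under 0.05, 1 was higher (E2f1) and 1 lower (Mapk8), where 12.7% and 10.9% of all tested genes were. The median of the 8 was -0.35, with -0.17 without control replicate 1 and -0.46 without control replicate 2. E2f1 was the 1 gene with a positive fold change, against 7 negative. It measured 4.98 and 3.83 CPM in control and 11.0 and 14.3 CPM in YAP5SA (log2 fold change 1.51, edgeR adjusted p = 0.0554). Mapk8 had a log2 fold change of -0.55 (edgeR adjusted p = 0.136). Both were named after their values were seen. Atf4, a transcription factor gene of the integrated stress response, measured 160 ± 38.1 CPM (control) and 132 ± 0.337 CPM (YAP5SA; SD, n = 2, adjusted p = 0.479). Jun, a subunit gene of AP-1, measured 82.2 and 257 CPM in control and 115 and 115 CPM in YAP5SA (adjusted p = 0.547), with the control libraries on either side of YAP5SA.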
